A study of Homo sapiens with 8 samples.

Results

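The 10 genes described here are JAK1, JAK2, STAT3, STAT5A, STAT5B, SOCS1, SOCS2, SOCS3, CISH and PIM1, the core of JAK-STAT signalling with its SOCS feedback inhibitors and a target kinase. They were taken by name from the 23562 rows of a raw count table, each had 1 row, and all 10 passed the filter on low counts. PolyA RNA was sequenced from OCI-AML5, a long-established line of human acute myeloid leukemia. The sgCEBPD group had 4 libraries from cells transduced with lentiCRISPRv2 carrying a guide RNA against CEBPD, the gene of the transcription factor C/EBP delta. The sgControl group had 4 libraries from cells given the same vector with a non-specific guide. Each library held a different guide, so guides and libraries vary together inside a group, and nothing says that a transduction was repeated or that cultures were separate. P-values therefore measure only the spread between these libraries. All libraries come from 1 cell line, and the sources used here do not give the culture medium or any cytokine in it.

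Cytokine receptors have no kinase of their own and are bound by Janus kinases (JAKs). On ligand binding the JAKs phosphorylate the receptor and the STAT transcription factors, which pair, enter the nucleus and switch on genes at TTCNNNGAA elements. Some of those genes encode CISH and the SOCS proteins, which bind the receptor or the JAK and damp the signal, so their transcripts are commonly read as a trace of recent STAT activity. STAT5 carries signals of GM-CSF, IL-3 and erythropoietin in myeloid cells, STAT3 those of G-CSF and IL-6, and CEBPD itself is a known STAT3 target.

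Library totals lay between 10217751 and 11521209 counts. CEBPD transcript stood at 107, 209, 195 and 164 CPM in sgCEBPD 1 to 4, against 216, 204, 205 and 202 CPM in sgControl 1 to 4. CPM are read counts scaled to a common library size with TMM factors. The groups overlapped, and the transcript level does not measure the edit or the protein. The library sgCEBPD 3 stood apart from the rest: across genes its log2 CPM correlated with the other libraries at 0.912 to 0.931, against 0.972 to 0.989 among the other 7. It is therefore shown apart throughout, and each comparison is given with it (8 libraries) and without it (7 libraries). Of all genes tested, 69.7% lay outside the range of the other 7 libraries in sgCEBPD 3, with 34.8% above and 34.9% below. The 12 monocyte and macrophage markers in the table summed to 597 to 758 CPM in sgCEBPD 1, 2 and 4, to 1392 CPM in sgCEBPD 3, and to 593 to 650 CPM in the controls. CD14, which defines monocytes, reached 41.0 CPM in sgCEBPD 3, with 0.26 to 2.74 CPM across sgCEBPD 1, 2 and 4 and 0 to 0.092 CPM across the controls. The 8 immature myeloid markers summed to 891 to 937 CPM in sgCEBPD 1, 2 and 4, 1028 CPM in sgCEBPD 3, and 862 to 948 CPM in the controls. SPN made up 749 CPM of the sum in sgCEBPD 3. Of the 7 tested, 4 lay below the other 7 libraries in sgCEBPD 3 and 1 above, with a median log2 ratio to the mean of sgCEBPD 1, 2 and 4 of -0.40. CD34, a progenitor marker, was at 7.86 CPM in sgCEBPD 3 and 13.4 to 104 CPM elsewhere, and KIT, the stem cell factor receptor, at 2.46 CPM in sgCEBPD 3 and 18.1 to 51.9 CPM elsewhere. The 4 T cell markers in the table summed to 81.0 CPM in sgCEBPD 3, nearly all of it CD3D at 52.7 and TRAC at 27.8 CPM, against 0.70 to 2.33 CPM in the other 7 libraries. CD3D and TRAC are T cell genes and OCI-AML5 is a myeloid line; whether sgCEBPD 3 was a mixed sample or a changed culture was not tested, and each of its values below is subject to this. The part of these markers in the results below was not tested either, and in bulk RNA fewer cells of a type and less RNA per cell cannot be told apart.

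Of the promoter windows searched for these genes, that of CISH carries the most STAT elements. It is shown here because CISH had the highest level per length of the 4 SOCS family genes described here. The RefSeq window runs from 250 bases before to 50 bases after the transcription start, at chr3:50611725-50612024 on the minus strand (GRCh38.p14), and capitals mark each TTCNNNGAA, the element bound by STAT dimers.
CISH promoter: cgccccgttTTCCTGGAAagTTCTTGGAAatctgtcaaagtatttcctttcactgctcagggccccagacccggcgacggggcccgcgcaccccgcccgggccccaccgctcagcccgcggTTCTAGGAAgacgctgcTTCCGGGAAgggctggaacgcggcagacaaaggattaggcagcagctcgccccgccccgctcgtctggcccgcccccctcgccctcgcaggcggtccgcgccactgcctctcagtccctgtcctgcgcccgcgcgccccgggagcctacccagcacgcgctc
It holds 4 matches, with first bases 241, 230, 129 and 112 bases before the start. TTCNNNGAA reads the same way on both strands, and 7.66% of the 35116 promoter windows in the table held at least 1 match. At least 4 were found in 7 windows (0.0199%). RefSeq windows were matched for 9 of the 10 genes, 17 windows in all, and only the CISH window held a match. Neither SOCS3 window (chr17:78360876-78361175 and chr17:78359618-78359917) covers the SOCS3 gene start at chr17:78360077 on the minus strand. The STAT5B window (chr17:42276342-42276641) also does not reach its gene start at chr17:42276707. Sequence at those starts was therefore not searched, and no absence of STAT elements is shown there. The C/EBP element TTGCNNAA, searched on both strands, was in 10.5% of all windows and in 0 of the 17. These matches describe letters in a short window and nothing else.

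The genes lie at chr1:64833229-64966504 (JAK1), chr9:4984390-5128183 (JAK2), chr16:11254405-11256200 (SOCS1), chr12:93569814-93583487 (SOCS2), chr17:78356778-78360077 (SOCS3), chr3:50606490-50611831 (CISH) and chr6:37170203-37175426 (PIM1) in GRCh38. STAT5B (chr17:42199168-42276707), STAT5A (chr17:42287547-42311943) and STAT3 (chr17:42313324-42388568) are neighbours.

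Per length of transcript, PIM1 and CISH led and SOCS3 came last. On the scale of CPM per kb of exon (GENCODE 29), the sgControl means were 179 ± 18.8 for PIM1, which encodes a serine-threonine kinase that promotes survival, and 72.2 ± 2.99 for CISH (SD, n = 4). PIM1 was at rank 233 and CISH at rank 818 of 22244 rows with a length and a control level above 0. STAT5B (34.2 ± 0.90), JAK1 (34.04 ± 0.585), STAT5A (32.9 ± 2.67) and STAT3 (29.9 ± 2.15) followed, and each overlapped the next in that order over the 4 control libraries. JAK2 (11.4 ± 0.723) and SOCS2 (10.3 ± 0.786) also overlapped. SOCS1 (7.40 ± 0.535) and SOCS3 (2.62 ± 0.247) lay below them without overlap. In sgCEBPD 3 the order within the middle set differed: STAT3 was at 49.9, STAT5B at 43.2, JAK1 at 36.9 and STAT5A at 21.8 CPM per kb.

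**Figure D1:**
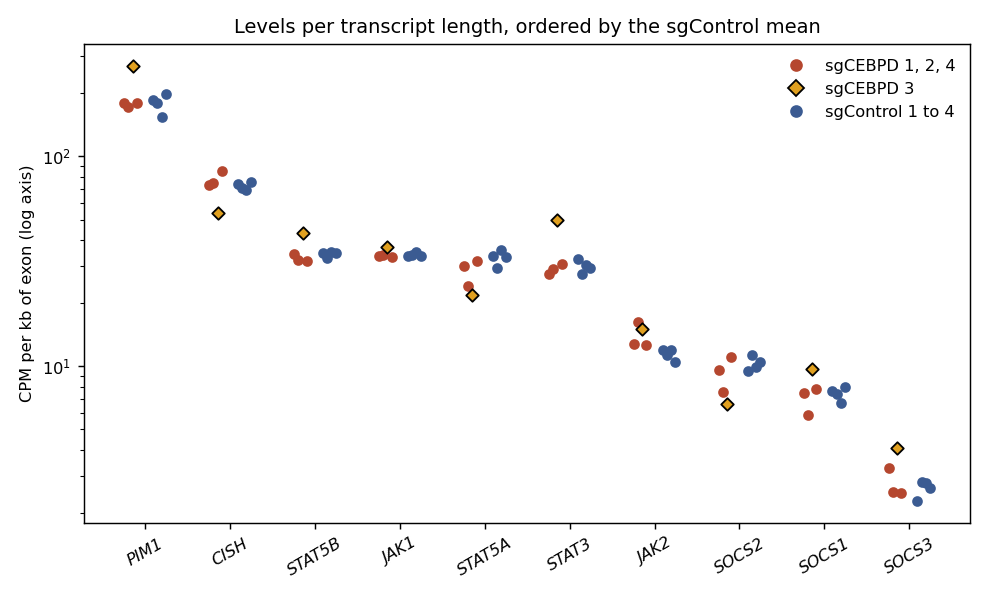
Level of each of the 10 genes per length, in CPM per kb of exon on a log axis, with each point 1 library (red, sgCEBPD 1, 2 and 4; yellow diamond, sgCEBPD 3; blue, sgControl 1 to 4). Genes run by their sgControl mean, with PIM1 at 179 and SOCS3 at 2.62 CPM per kb.

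No member passed the test between sgCEBPD and sgControl, with or without sgCEBPD 3. In edgeR's quasi-likelihood test, with p-values adjusted over all genes tested by the Benjamini-Hochberg method and a threshold of 0.05, 0 of 10 were called in 8 libraries, where 0.0795% of 13838 genes were called. By direction the 8-library background was 0.00723% higher and 0.0723% lower. In 7 libraries 0 of 10 were called, where 2.01% of 14047 genes were called, 0.705% higher and 1.31% lower. Limma-voom and DESeq2 called 0 of 10 in both comparisons as well. At an unadjusted p under 0.05 there was 1 member in each comparison, JAK2, against 11.4% of all genes with 8 libraries and 15.5% with 7. The median log2 fold change (sgCEBPD over sgControl) of the 10 was 0.05 with 8 libraries and -0.03 with 7, against 0.00029 and 0.0011 over all genes tested. These shares are near the background and are no result about the 10 genes.

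Among the kinases, JAK2, which pairs with the GM-CSF, IL-3, erythropoietin and thrombopoietin receptors, was higher in every sgCEBPD library. It stood at 67.5, 85.4, 79.4 and 66.6 CPM in sgCEBPD 1 to 4, against 63.4, 59.5, 63.3 and 55.3 CPM in sgControl 1 to 4. The groups did not overlap, as was so for 9.59% of all genes tested with 8 libraries, and sgCEBPD 2 was the highest. The log2 fold change was 0.31 (SE 0.10, 95% interval 0.08 to 0.53, edgeR adjusted p = 0.331) with 8 libraries. With 7 libraries it was 0.28 (SE 0.09, interval 0.07 to 0.48, edgeR adjusted p = 0.182), and 14.4% of genes then had no overlap. Without sgCEBPD 2 as well, the 7-library value was 0.15. Over the alternatives (settings of edgeR, DESeq2 and voom) the adjusted p of JAK2 lay between 0.136 and 0.694 with 8 libraries and between 0.116 and 0.423 with 7, so the difference passed the threshold in none of them.

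JAK1, the partner of gp130 and interferon receptors, was the steadiest of the 10. It stood at 169, 171, 186 and 167 CPM in sgCEBPD 1 to 4, against 169.8, 171, 176 and 169.8 CPM in sgControl 1 to 4. All but sgCEBPD 3 lay within 10 CPM of each other. Its coefficient of variation over the controls was 1.72%, below the 2.31% that counting error alone would give at its mean count. The 95% interval of its log2 fold change was -0.11 to 0.07 with 7 libraries. The JAK1 value of 8 libraries, 0.01, changed sign to -0.015 when library totals replaced TMM.

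STAT3, the factor downstream of IL-6 and G-CSF receptors, differed in 1 library. It stood at 138, 147, 252 and 155 CPM in sgCEBPD 1 to 4, against 164, 138, 153 and 149 CPM in sgControl 1 to 4. Outside sgCEBPD 3 the groups overlapped closely, and sgCEBPD 3 was at 167% of the control mean. The log2 fold change was 0.19 (SE 0.18, edgeR adjusted p = 0.674) with that library and -0.04 (95% interval -0.18 to 0.10) without it.

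STAT5A and STAT5B are neighbouring, closely related factors on chromosome 17 that carry GM-CSF and IL-3 signals. STAT5A stood at 143, 114, 104 and 152 CPM in sgCEBPD 1 to 4, against 159, 139, 170.1 and 157 CPM in sgControl 1 to 4. The lowest libraries were sgCEBPD 3 and sgCEBPD 2, while sgCEBPD 1 and 4 lay within the control range. Its log2 fold change was -0.29 (SE 0.13, interval -0.58 to 0.01, edgeR adjusted p = 0.445), and -0.20 (interval -0.43 to 0.04, edgeR adjusted p = 0.412) without sgCEBPD 3. It was -0.082 when sgCEBPD 2 was left out too. STAT5B stood at 175, 164, 220.5 and 161 CPM in sgCEBPD 1 to 4, against 176, 168, 179 and 176 CPM in sgControl 1 to 4. In sgCEBPD 3 the pair thus lay on opposite sides of the other libraries, with STAT5A below all of them and STAT5B above. The ratio of STAT5A to STAT5B counts was 0.817, 0.695, 0.471 and 0.942 in sgCEBPD 1 to 4, against 0.904, 0.830, 0.953 and 0.893 in sgControl 1 to 4. Their summed level was 279 to 324 CPM in sgCEBPD and 307 to 349 CPM in sgControl, so the sum in sgCEBPD 3, at 324 CPM, lay within the control range. Of the 50-base words in STAT5A transcripts, 8.61% also occur in STAT5B transcripts (GENCODE 29), so a part of their reads could be assigned to either gene, and the authors' treatment of such reads is not given in the sources used here.

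**Figure D2:**
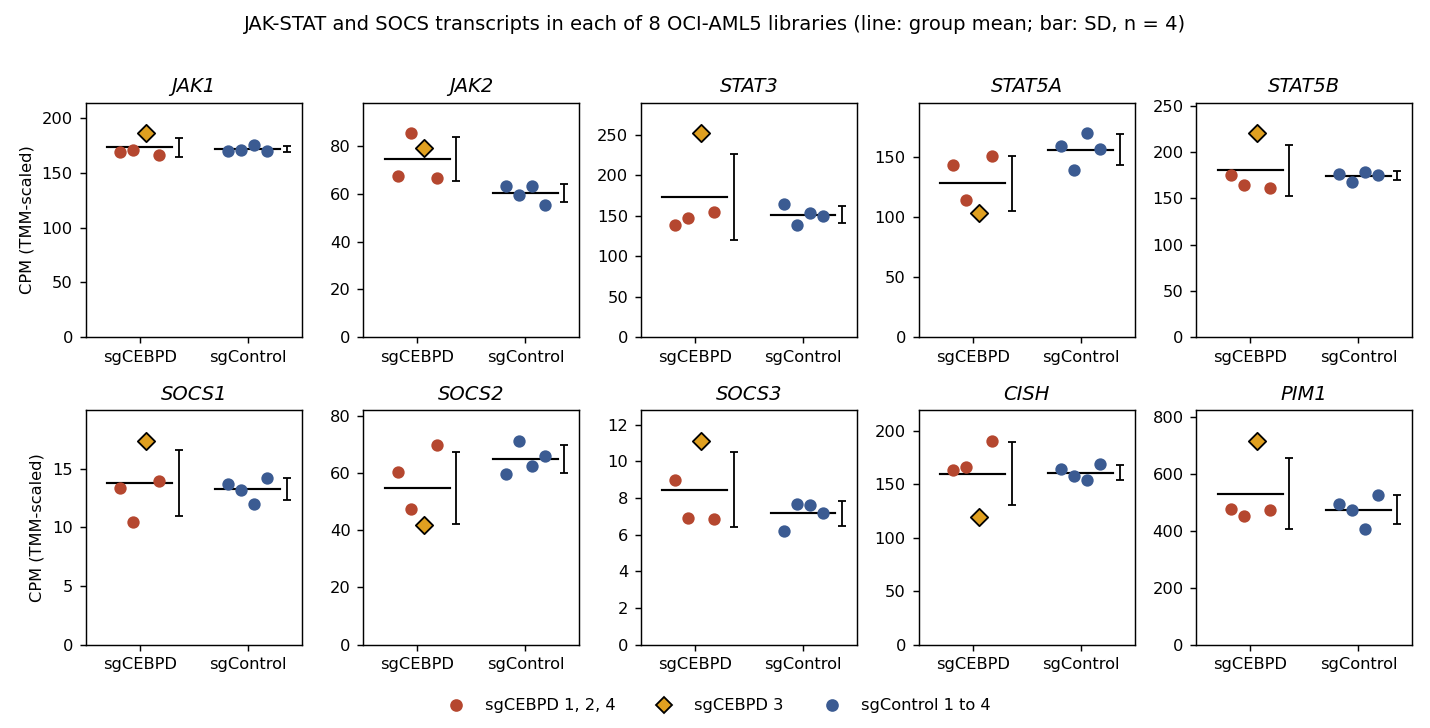
CPM of each of the 10 genes in every library, on axes that start at 0, with sgCEBPD on the left and sgControl on the right of each panel. Lines are group means and bars SD (n = 4); the yellow diamond, sgCEBPD 3, sits above the other 7 libraries for 6 genes, below them for 3 and among them for JAK2.

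CISH and SOCS2, both STAT5 targets that act back on cytokine and growth hormone receptors, were low in sgCEBPD 3. CISH stood at 163, 166, 119 and 190.4 CPM in sgCEBPD 1 to 4, against 164, 157, 154 and 169 CPM in sgControl 1 to 4. It was highest in sgCEBPD 4 and lowest in sgCEBPD 3, which was at 74.1% of the control mean. The log2 fold change of CISH was -0.01 (SE 0.13) with 8 libraries and 0.11 (SE 0.06, interval -0.03 to 0.24, edgeR adjusted p = 0.443) with 7. SOCS2 stood at 60.2, 47.4, 41.7 and 69.7 CPM in sgCEBPD 1 to 4, against 59.6, 71.1, 62.5 and 65.7 CPM in sgControl 1 to 4. As with STAT5A, sgCEBPD 2 and 3 lay below every control and sgCEBPD 1 and 4 did not. The log2 fold change of SOCS2 was -0.24 (SE 0.16, edgeR adjusted p = 0.563), and -0.13 (interval -0.41 to 0.15) without sgCEBPD 3. An antisense gene, SOCS2-AS1, shares 240 exon bases with SOCS2 and had at most 59 counts in a library, against 424 to 807 counts for SOCS2. Without strand, reads in that shared stretch could belong to either gene. For CISH, 3.25% of the 50-base words in its transcripts also occur in those of MAPKAPK3, which lies on the opposite strand. In the exons used for lengths, however, CISH and MAPKAPK3 share 0 bases. Whether reads could belong to either of these genes thus depends on the annotation used for counting, which is not given. MAPKAPK3 had up to 5015 counts in a library, against 1212 to 2204 for CISH.

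SOCS1 and SOCS3, which block JAK activity through a kinase inhibitory region, were the scarcest of the 10. SOCS1 stood at 13.4, 10.5, 17.4 and 14.0 CPM in sgCEBPD 1 to 4, against 13.7, 13.2, 11.99 and 14.2 CPM in sgControl 1 to 4. SOCS3, the inhibitor that binds gp130 and the G-CSF receptor, stood at 8.98, 6.91, 11.1 and 6.82 CPM in sgCEBPD 1 to 4, against 6.21, 7.66, 7.63 and 7.16 CPM in sgControl 1 to 4. The highest value of each was in sgCEBPD 3. Among the other 3 sgCEBPD libraries, sgCEBPD 2 lay below the controls for SOCS1 and sgCEBPD 1 above them for SOCS3, and the rest lay within the control range. These levels rest on 111 to 177 reads for SOCS1 and 71 to 113 reads for SOCS3, and their coefficients of variation over the controls, 7.23% and 9.44%, were below counting error alone (8.30% and 11.3%). The log2 fold changes with 7 libraries were -0.07 (interval -0.35 to 0.21) for SOCS1 and 0.08 (interval -0.27 to 0.43) for SOCS3.

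PIM1 stood at 477, 454, 716 and 474 CPM in sgCEBPD 1 to 4, against 493, 473, 407 and 525 CPM in sgControl 1 to 4. Outside sgCEBPD 3 the sgCEBPD values lay close together, within the wider range of the controls. The log2 fold change was 0.16 (SE 0.16, edgeR adjusted p = 0.682) with 8 libraries and -0.02 (interval -0.19 to 0.15) with 7.

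**Figure D3:**
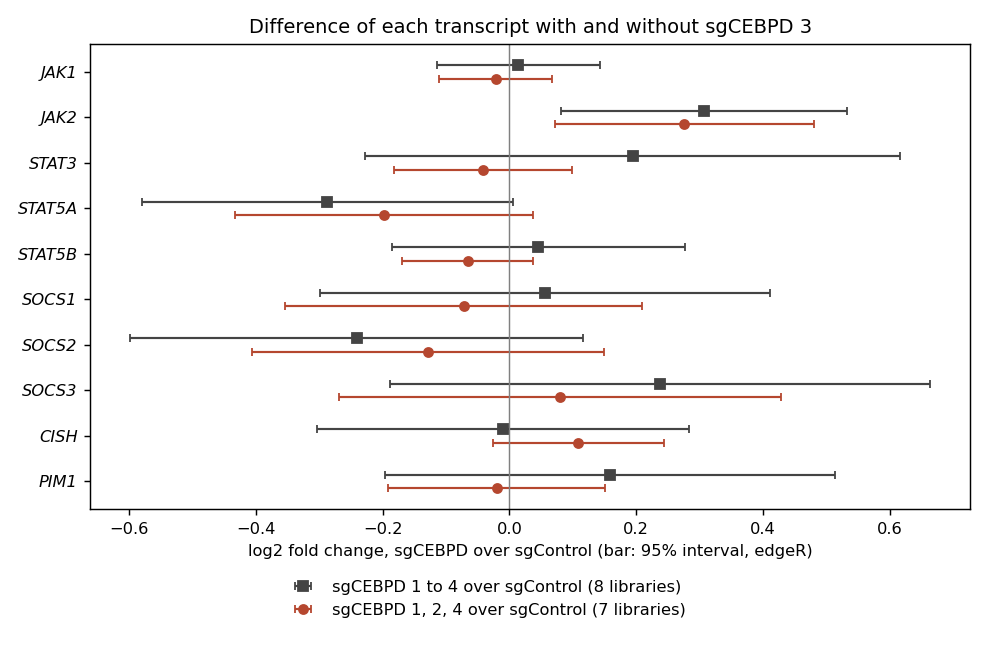
Log2 fold change of each gene, sgCEBPD over sgControl, with 95% intervals from edgeR, in 8 libraries (grey squares) and in the 7 libraries without sgCEBPD 3 (red circles). The intervals of JAK2 lie above 0 in both comparisons (0.08 to 0.53 and 0.07 to 0.48), those of the other 9 genes include 0, and none of the 10 passed the test adjusted over all genes.

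Taken by itself, sgCEBPD 3 lay outside the range of the other 7 libraries for 9 of the 10 genes, against 69.7% of all genes tested. STAT3, STAT5B, JAK1, SOCS1, SOCS3 and PIM1 were above the range and STAT5A, SOCS2 and CISH below it. The place of JAK1 depends on the scaling, as the TMM factor was 0.955 for sgCEBPD 3 and 1.01 for sgControl 3. JAK1 had 1896 of 10712069 counts in sgCEBPD 3 and 1938 of 10919798 in sgControl 3. By library totals sgControl 3 was thus slightly the higher, and JAK1 in sgCEBPD 3 was not above the range. For the 9 genes outside the range of TMM-scaled CPM, the exact 95% Poisson interval of the sgCEBPD 3 level did not reach that range. The interval covers counting error in sgCEBPD 3 only and takes the other 7 levels and the scaling as exact. It therefore does not show that all 9 differ by more than counting error. SOCS3, for example, had 113 reads in sgCEBPD 3 and 96 in sgCEBPD 1. The sizes were moderate: against the mean of sgCEBPD 1, 2 and 4 the log2 ratios were 0.78 for STAT3, 0.61 for PIM1, 0.54 for SOCS3, 0.46 for SOCS1, 0.40 for STAT5B and 0.14 for JAK1. They were -0.54 for CISH, -0.50 for SOCS2 and -0.39 for STAT5A. STAT3 and PIM1 were more than 1.5-fold away, 2 of 10, where 32.4% of all genes were. The median absolute log2 ratio was 0.48 for the 10 genes and 0.37 for all genes tested. With 1 library there is no replicate of this pattern and no test.

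Outside sgCEBPD 3, the guides within the sgCEBPD group differed most for SOCS2, SOCS3, SOCS1, JAK2 and STAT5A. Over sgCEBPD 1, 2 and 4 the coefficients of variation were 18.9% for SOCS2, 16.1% for SOCS3, 14.8% for SOCS1, 14.5% for JAK2 and 14.4% for STAT5A, against 7.61%, 9.44%, 7.23%, 6.33% and 8.11% over the controls. Counting error alone, at the control mean counts, would give 11.3% for SOCS3 and 8.30% for SOCS1, against 2.42% to 3.89% for SOCS2, JAK2 and STAT5A. For PIM1 the sgCEBPD spread was the smaller, at 2.71% against 10.5% over the controls. The library sgCEBPD 2 had the lowest SOCS2, SOCS1 and STAT5A and the highest JAK2 of these 3, and sgCEBPD 1, the library with the least CEBPD transcript, had the lowest STAT3 and the highest SOCS3 and STAT5B. Pearson's r between members was taken on the log2 of CPM plus 1. Over the 7 libraries it was 0.79 between SOCS1 and SOCS2, 0.63 between STAT5A and SOCS2, and -0.83 between JAK2 and SOCS2. These describe 7 points that share a scaling. For STAT3 and SOCS3, r was -0.81 over 7 libraries and 0.64 with sgCEBPD 3 added, and for STAT3 and PIM1 it was -0.00 and 0.86.

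A search for like patterns ran over 9550 genes with a mean of at least 10 CPM. The genes most like each member over those 7 libraries were picked by the highest Pearson r of log2 CPM (prior count 2). They were GK and DENND6A for JAK2 (r = 0.987 and 0.983), WRN and WNK2 for STAT5A (0.986 and 0.985), SUCLG2 and DUX4L50 for CISH (0.982 and 0.966) and ARMC10 and TANC1 for SOCS2 (0.978 for both). For JAK1 they were ANKRD36C and ING1, for STAT3 WDFY1 and MPPE1, for STAT5B GUCD1 and SLC39A3, for SOCS1 PLEKHJ1 and PPP1R3B, for SOCS3 NUTF2 and TONSL, and for PIM1 POM121C and SUV39H1, with r from 0.942 to 0.982. Each is the top of a search over many genes and 7 points.

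In edgeR, 1 of the 4 JAK kinases passed with 7 libraries and 0 with 8, and 2 had an unadjusted p under 0.05 in each comparison. Over all genes tested, 2.01% passed with 7 libraries and 0.0795% with 8. An unadjusted p under 0.05 was found for 15.5% and 11.4% of them. The kinase that passed was JAK3, which serves receptors with the common gamma chain. JAK3 stood at 21.8, 28.0, 42.1 and 20.3 CPM in sgCEBPD 1 to 4, against 10.4, 16.1, 12.9 and 12.2 CPM in sgControl 1 to 4. Every sgCEBPD library lay above every control. JAK3 rose without sgCEBPD 3, by 0.86 on the log2 scale (SE 0.16, edgeR adjusted p = 0.027). All 8 libraries together gave 1.12 (SE 0.25), which did not pass in edgeR (adjusted p = 0.202) but did in DESeq2 (adjusted p = 0.00336). The 7-library call was kept in 9 of 14 alternatives and lost when sgCEBPD 1, sgCEBPD 2, sgControl 1, sgControl 3 or sgControl 4 was left out, where the edgeR adjusted p was 0.0623 to 0.0757. TYK2, the fourth JAK, stood at 213 to 285 CPM in sgCEBPD and 214 to 228 CPM in sgControl and did not pass.

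Of the 7 STAT factors listed, 6 were tested. In either comparison 0 passed in edgeR, voom or DESeq2, and 0 had an unadjusted p under 0.05 in edgeR. Of all genes tested, 11.4% had such a p with 8 libraries and 15.5% with 7. STAT6, the IL-4 factor, stood at 193 to 324 CPM in sgCEBPD and 191 to 199 CPM in sgControl, with sgCEBPD 3 the highest, and STAT2 at 49.1 to 98.5 CPM against 44.4 to 54.9 CPM. All 8 SOCS family members were tested, and the same counts of 0 held for them. Their median log2 fold change was 0.04 with 8 libraries and 0.0040 with 7, with 4 positive and 4 negative values among the 7-library ones. SOCS4 stood at 43.7 to 52.5 CPM in sgCEBPD and 50.9 to 60.5 CPM in sgControl (log2 fold change -0.16, edgeR adjusted p = 0.393 with 7 libraries). In sgCEBPD 3, PIM2 was at 100.4 and PIM3 at 113 CPM, above the 41.6 to 46.4 and 80.2 to 90.3 CPM of the other 7, as PIM1 was.

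**Figure D4:**
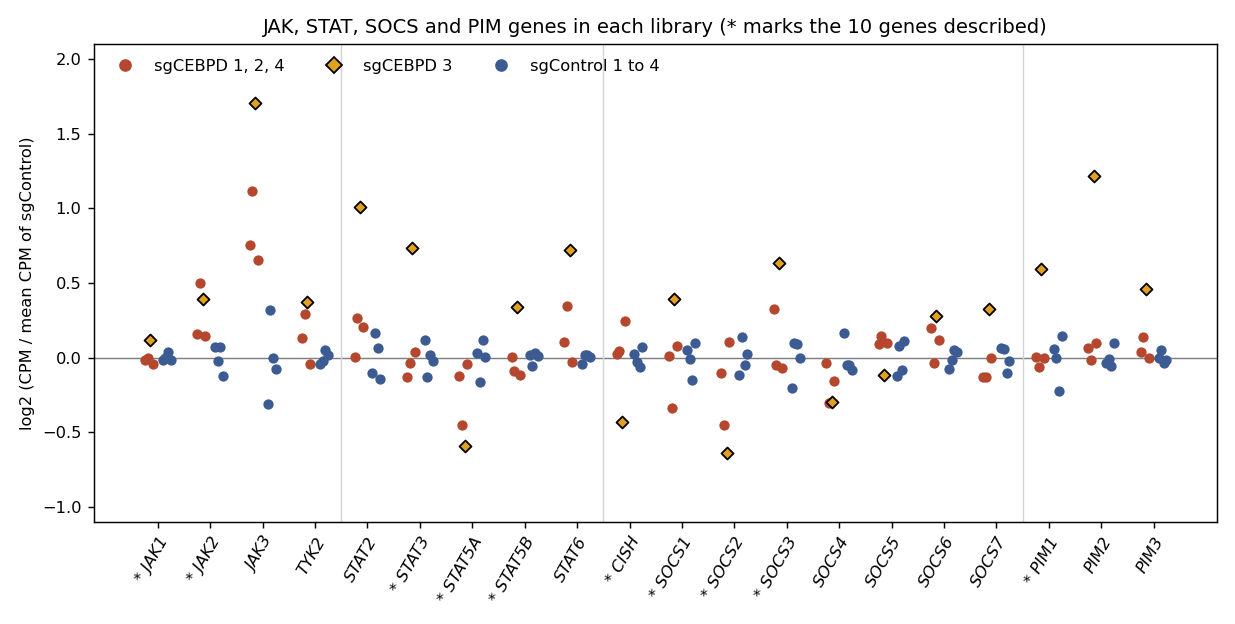
Log2 ratio of CPM to the sgControl mean for 20 JAK, STAT, SOCS and PIM genes in every library, with asterisks at the 10 genes described (red, sgCEBPD 1, 2 and 4; yellow diamond, sgCEBPD 3; blue, sgControl). JAK3 is the gene whose sgCEBPD points all sit well above the controls, at 20.3 to 42.1 against 10.4 to 16.1 CPM, and the diamonds of STAT2, STAT3, STAT6, PIM1 and PIM2 sit far above the other libraries.

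Of 25 tested cytokine receptors that use JAKs, 0 passed in edgeR with 8 libraries, and 2 rose and 1 fell with 7. Over all genes tested, 0.0795% passed with 8 libraries, and 0.705% rose and 1.31% fell with 7. An unadjusted p under 0.05 was found for 5 receptors with 8 libraries (11.4% of all genes) and 9 with 7 (15.5%). DESeq2 called 3 receptors with 8 libraries (IL13RA1, IL4R and IL7R) and 5 with 7, which were those 3 of edgeR with IL7R and IL10RA. It called 2.11% of all genes with 8 libraries and 4.24% with 7. IL13RA1, a chain of the IL-13 and type II IL-4 receptors, had 43.4, 64.4 and 50.6 CPM in sgCEBPD 1, 2 and 4, against 25.9 to 31.8 CPM in sgControl (edgeR adjusted p = 0.0152, with a log2 fold change of 0.87 and SE 0.13). In sgCEBPD 3 it was at 45.1 CPM, above the controls as well. IL12RB1, shared by the IL-12 and IL-23 receptors, had 57.7, 63.2 and 46.6 CPM against 39.6 to 41.4 CPM (log2 fold change 0.47, edgeR adjusted p = 0.0327), while sgCEBPD 3 was at 33.7 CPM, below all others. CSF3R, the G-CSF receptor, fell to 170.5, 226 and 188 CPM, against 288 to 308 CPM in sgControl, whereas sgCEBPD 3 was at 418 CPM (7-library log2 fold change -0.62, edgeR adjusted p = 0.0117). IL12RB1 lost its call without each of the 7 libraries except sgCEBPD 4 (edgeR adjusted p 0.0605 to 0.110). IL13RA1 lost it without sgControl 3 (edgeR adjusted p = 0.0507) and CSF3R without sgControl 1 (edgeR adjusted p = 0.0506). IL4R, which pairs with IL13RA1, had 39.9 to 48.9 CPM in sgCEBPD and 52.5 to 57.0 CPM in sgControl with no overlap, and its edgeR adjusted p was 0.0779 with 7 libraries. CSF2RB, the shared beta chain of the GM-CSF and IL-3 receptors, had 77.3 to 116 CPM in sgCEBPD and 63.6 to 82.6 CPM in sgControl and did not pass. CSF2RA, the GM-CSF receptor alpha chain, was at 1.08 CPM or less in every library. It lies in the pseudoautosomal region, which has a copy on each sex chromosome in the genome build, so reads may have been lost in counting and this level is uncertain.

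Ligand transcripts were scarce: 12 of the 29 ligands listed were in the table and 4 were tested, with 0 passing in edgeR, voom or DESeq2 in either comparison and 0 (8 libraries) and 1 (7 libraries) at an unadjusted p under 0.05 in edgeR. Of all genes tested, 11.4% (8 libraries) and 15.5% (7 libraries) had such a p. CLCF1, a gp130 ligand, had 4.32 to 12.5 CPM in sgCEBPD and 5.18 to 9.18 CPM in sgControl, with sgCEBPD 3 the lowest. OSM, a STAT5 target and gp130 ligand, had 2.59 to 3.46 CPM in sgCEBPD 1, 2 and 4, 9.73 CPM in sgCEBPD 3 and 3.39 to 4.45 CPM in sgControl.

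Among 21 phosphatases, adaptors and other regulators, 1 rose in edgeR with 7 libraries and 0 passed with 8. Over all genes tested, 0.705% rose with 7 libraries and 0.0795% passed with 8. An unadjusted p under 0.05 was found for 7 regulators with 8 libraries (11.4% of all genes) and 6 with 7 (15.5%). DESeq2 called 1 regulator with 8 libraries (GAB2) and 3 with 7 (GAB2, GRB2 and PTPRC), where it called 2.11% and 4.24% of all genes. PTPRC, which encodes the CD45 phosphatase, had 462, 496 and 405 CPM in sgCEBPD 1, 2 and 4, against 306 to 366 CPM in sgControl (edgeR adjusted p = 0.0305, with a log2 fold change of 0.44 and SE 0.08), and stood at 943 CPM in sgCEBPD 3. This call was lost when sgCEBPD 1, sgCEBPD 2, sgControl 1, sgControl 3 or sgControl 4 was left out (edgeR adjusted p 0.0705 to 0.0983). GAB2, an adaptor, had 32.4 to 40.9 CPM in sgCEBPD and 28.1 to 31.0 CPM in sgControl without overlap, with an edgeR adjusted p of 0.0759 with 7 libraries.

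The lists of STAT3 and STAT5 target genes, which partly hold the same genes and were chosen with earlier results known, held 1 gene called in edgeR. Of 21 tested STAT5 targets 0 passed in edgeR in either comparison, while 2 with 8 libraries and 4 with 7 had an unadjusted p under 0.05. Over all genes tested, 11.4% and 15.5% had such a p. DESeq2 called 1 of the STAT5 targets with 8 libraries, ID1 (log2 fold change -1.03, adjusted p = 0.0485), and 0 with 7, where it called 2.11% and 4.24% of all genes. In edgeR their median log2 fold change was 0.16 with 8 libraries and 0.05 with 7. Of 22 tested STAT3 targets 0 passed in edgeR with 8 libraries, where DESeq2 called IL4R. With 7 libraries 1 rose in edgeR, where 0.705% of all genes tested did. An unadjusted p under 0.05 was found for 4 STAT3 targets with 8 libraries and 6 with 7. Their medians were 0.27 and 0.02. The gene that rose was A2M, a protease inhibitor, at 3.74, 6.05 and 5.18 CPM in sgCEBPD 1, 2 and 4, against 0.35 to 1.18 CPM in sgControl (edgeR adjusted p = 0.00456), and at 69.2 CPM in sgCEBPD 3. The lowest p with 7 libraries among STAT5 targets were CCND3, a D cyclin, at 97.3 to 110.2 CPM in sgCEBPD 1, 2 and 4 against 106 to 136 CPM in sgControl (edgeR adjusted p = 0.214), and MCL1, an anti-apoptotic BCL2 relative, at 334 to 342 CPM against 300.1 to 325 CPM (edgeR adjusted p = 0.261). In sgCEBPD 3, 18 of the 22 STAT3 targets and 13 of the 21 STAT5 targets lay above the other 7 libraries, where 34.8% of all genes did. The median log2 ratio of sgCEBPD 3 to the mean of sgCEBPD 1, 2 and 4 was 0.78 for the STAT3 targets, 0.44 for the STAT5 targets and -0.0071 over all genes. Macrophages express several of these STAT3 targets, and the share of this that goes with the monocyte and macrophage markers of that library was not tested.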

How the data were processed

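The authors deposited raw read counts per gene, not normalised, as 1 table with 8 columns, and each column's name is that of 1 library in the labels. The submitters' processing notes name hg38 and the tools HISAT2, FastQC and DESeq2. RNA was extracted with Trizol and libraries came from an Abclonal kit, per the labels' protocols. The counting tool, strand setting and annotation are not given in the sources used here. Of the 23562 rows, 116 repeat a symbol and were kept apart.

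The test was edgeR 4.0.16 in R 4.3.3 on these counts (filterByExpr, TMM, robust quasi-likelihood test, group as the term) over all genes, with p-values adjusted by the Benjamini-Hochberg method. Printed CPM use the TMM factors of all 8 libraries. SE is the absolute log2 fold change over the square root of F. Alternatives were DESeq2 1.42.0, voom in limma 3.58.1, RLE or library totals, a filter at a mean of 5 CPM or none, leaving out libraries 1 at a time, and a block for guide number. The fit was tested on simulated counts. Lengths and positions come from GENCODE 29 (GRCh38), with 95.5% of rows matched by symbol or Ensembl ID, and promoters from RefSeq (GRCh38.p14). From each pathway list, the text names genes called in either comparison and the 2 with the lowest p with 7 libraries; others named were chosen after their values were seen. Some listed genes and 1 list are not reported here. The members, the lists and the removal of sgCEBPD 3 were chosen with earlier results of these data known.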

Additional observations from a re-analysis of the deposited data

Results flagged for a closer look

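Among the 20 groups of 4 values examined (10 genes in 2 groups), 2 had 1 value well outside the remaining 3. For independent groups with no outlying library, about 1 group in 20 would by chance. STAT3 was at 252 CPM in sgCEBPD 3, against 138 to 155 CPM in sgCEBPD 1, 2 and 4, and the gap made up 0.854 of the range. PIM1 was at 716 CPM in sgCEBPD 3, against 454 to 477 CPM in the other sgCEBPD libraries, with a gap of 0.912 of the range. In both, the library is the one that stood apart across all genes. The 2 flags are thus not independent, and the rate of 1 in 20 is no yardstick for them. The share of all genes flagged by this rule is not given here.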

How the results depend on the processing

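No member was called under any alternative. Of 290 refitted member values, 275 kept their direction and their side of the threshold and 15 changed sign, all of them in genes that were not called. The sign changes came from JAK1 with library totals (-0.015 with 8 libraries) and from leaving out libraries. With 1 of the 8 libraries left out, log2 fold changes ranged from -0.022 to 0.031 for JAK1, -0.042 to 0.29 for STAT3, -0.066 to 0.10 for STAT5B, -0.072 to 0.17 for SOCS1, -0.11 to 0.11 for CISH and -0.020 to 0.23 for PIM1. With 1 of the 7 left out they ranged from -0.083 to 0.0019 for STAT3, -0.15 to 0.047 for SOCS1, -0.27 to 0.010 for SOCS2, -0.058 to 0.15 for SOCS3 and -0.088 to 0.035 for PIM1. Without a sign change, 7-library values ranged from 0.15 to 0.34 for JAK2 and from -0.28 to -0.082 for STAT5A, with the value nearest 0 without sgCEBPD 2 in both. The count of genes called in 8 libraries was 11; it was 292 with DESeq2, 20 with no filter, 1 with a replicate block by guide, and 0 to 283 with a library left out. Leaving out sgCEBPD 2 gave the 0 in edgeR, where 1345 genes had an unadjusted p under 0.05, and leaving out sgCEBPD 3 the 283. In 7 libraries it was 283, 596 with DESeq2, 352 with the block, and 66 to 312 with a library left out, lowest without sgControl 1. Pathway-list genes called were 0 with 8 libraries, 7 with DESeq2 (GAB2, IL4R, JAK3, ID1, IL13RA1, IL7R and CIITA) and 0 to 6 with a library left out. With 7 libraries they were 6, 13 with DESeq2, 7 with the block and 2 to 7 with a library left out. The cause was not tested. Deviations of same-numbered guides from their group means correlated at -0.08 to 0.06 over 8 libraries, where sgCEBPD 3 enters the sgCEBPD mean. Over 7 libraries these correlations were 0.016 to 0.078. The values are small, but they cannot exclude a pairing by number, and the main fits used none. With the block IL12RB1 and IL13RA1 lost their 7-library calls (edgeR adjusted p 0.0507 and 0.108). SOCS1 and SOCS3 are limited by their depth of 71 to 177 reads.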
